A study of Mus musculus with 7 samples.

Results

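Broad peaks at the starts of protein-coding genes are the 660 ATAC-seq peaks of 1000 bp or more, out of 6395 listed peaks, that the authors' annotation placed at a transcription start site (TSS) of a protein-coding gene. ATAC-seq tags open DNA with a transposase, so that its fragments come mainly from accessible chromatin. The members were chosen by their length, a measured value, which gave 660 of 4237 peaks at protein-coding starts (15.6%) and 658 of 4082 genes. The other 3577 peaks at protein-coding starts, each under 1000 bp, served as the comparison. The cells were splenic T follicular helper (Tfh) cells, which direct antibody responses of B cells, sorted as CD4+, CD44+ and GITR- with PSGL-1 low, CXCR5 high and PD-1 high. The mice, of the lupus-prone strain B6/Sle1.Yaa, were 5 months old. Both groups carried Sle1 and Yaa, and the labels give no infection. For 4 weeks, 2 times a week, mice of 4 samples were given an anti-IFNAR1 antibody, directed at the type I interferon receptor, and mice of 3 samples the control antibody, anti-rat IgG. The target is spelled IFNA1 in the treatment labels, whereas the title has IFNAR1. Whether a sample was 1 mouse or a pool is not given in the labels.

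Each peak was listed because its coverage on the anti-IFNAR1 side exceeded the control IgG background, and the length, coverage and fold of a peak all come from that 1 comparison. The length is thus the extent of the excess over control, and not by itself the width of open chromatin. Length, coverage and fold are the authors' own values, without a column for any sample, so they are described here without a test and carry no spread between mice. Coverage is given below as fragments at the summit, the highest point of the peak. The background is the control coverage that the peak caller used, in control fragments. By its value it was a count at the site, an average over a 1 kb or 10 kb window, or the genome rate. It was a count at the site for 314 of 660 broad peaks (47.6%). The fold is the ratio of the scaled coverage to the background with 1 added to each. The ratio of anti-IFNAR1 to control fragments was not counted. The spacing of the coverage values gives 3.54 to 1, if the caller scaled the anti-IFNAR1 side down to the control. Peaks higher in control mice were not analysed here.

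Open chromatin at a gene start marks the core promoter, where RNA polymerase II is loaded and where nucleosomes are displaced. Its width varies between genes: a narrow opening covers the start alone, whereas a wide one takes in flanking regulatory DNA, further start sites or the beginning of the transcribed region. Genes that respond quickly to signals, and genes that define a cell's identity, are known for extended active chromatin around their starts.

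Promoter sequences are shown for 6 broad peaks and 1 shorter peak, so that the ends of the range can be read beside their values. They are the longest, the most covered and the highest in fold of the broad peaks that had a RefSeq entry (Per1, Kpnb1 and Exosc8), the longest such peak of 3 gene lists described below (Dusp6, Nfkb2 and Hivep2), and the most covered shorter peak of a ribosomal protein gene (Rps19). Each is the RefSeq window (GRCm38.p6) from 250 bases before to 50 bases after a start, 5′ to 3′ on the gene's strand, and lay fully inside its peak. They lie at chr11:69098699-69098998 (+ strand) for Per1, chr11:97187843-97188142 (- strand) for Kpnb1, chr3:54735315-54735614 (- strand) for Exosc8, chr10:99262981-99263280 (+ strand) for Dusp6, chr19:46304487-46304786 (+ strand) for Nfkb2, chr10:13966129-13966428 (+ strand) for Hivep2 and chr7:24884342-24884641 (+ strand) for Rps19. Capitals mark matches, on either strand, to the 11 motifs searched, and matches to different motifs were allowed to overlap.
Per1: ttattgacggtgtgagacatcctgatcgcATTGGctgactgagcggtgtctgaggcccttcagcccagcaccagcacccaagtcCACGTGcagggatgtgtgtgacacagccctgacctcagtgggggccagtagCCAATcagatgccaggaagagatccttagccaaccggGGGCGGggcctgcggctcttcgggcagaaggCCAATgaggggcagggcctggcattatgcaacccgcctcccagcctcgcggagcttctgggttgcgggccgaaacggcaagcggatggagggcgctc
Kpnb1: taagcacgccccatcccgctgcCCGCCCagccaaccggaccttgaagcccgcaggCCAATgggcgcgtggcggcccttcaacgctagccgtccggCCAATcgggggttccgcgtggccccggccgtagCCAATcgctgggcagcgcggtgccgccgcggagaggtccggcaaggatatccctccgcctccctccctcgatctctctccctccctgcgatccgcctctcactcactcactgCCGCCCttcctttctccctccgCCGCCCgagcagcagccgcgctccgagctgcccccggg
Exosc8: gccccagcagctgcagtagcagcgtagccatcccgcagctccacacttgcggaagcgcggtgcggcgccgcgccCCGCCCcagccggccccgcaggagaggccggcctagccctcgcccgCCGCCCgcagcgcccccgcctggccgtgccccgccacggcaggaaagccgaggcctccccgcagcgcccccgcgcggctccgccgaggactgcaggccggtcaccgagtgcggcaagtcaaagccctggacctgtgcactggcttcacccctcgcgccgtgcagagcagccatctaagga
Dusp6: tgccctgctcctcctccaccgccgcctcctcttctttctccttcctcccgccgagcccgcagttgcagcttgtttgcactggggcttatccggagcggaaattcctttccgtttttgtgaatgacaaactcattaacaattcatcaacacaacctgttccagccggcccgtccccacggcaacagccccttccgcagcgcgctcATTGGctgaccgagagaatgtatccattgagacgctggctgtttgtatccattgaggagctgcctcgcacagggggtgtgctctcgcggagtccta
Nfkb2: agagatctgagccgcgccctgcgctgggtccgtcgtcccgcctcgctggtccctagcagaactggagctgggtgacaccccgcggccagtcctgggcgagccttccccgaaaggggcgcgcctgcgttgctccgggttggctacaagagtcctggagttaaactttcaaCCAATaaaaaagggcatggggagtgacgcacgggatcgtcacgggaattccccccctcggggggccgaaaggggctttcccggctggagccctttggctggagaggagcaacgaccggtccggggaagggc
Hivep2: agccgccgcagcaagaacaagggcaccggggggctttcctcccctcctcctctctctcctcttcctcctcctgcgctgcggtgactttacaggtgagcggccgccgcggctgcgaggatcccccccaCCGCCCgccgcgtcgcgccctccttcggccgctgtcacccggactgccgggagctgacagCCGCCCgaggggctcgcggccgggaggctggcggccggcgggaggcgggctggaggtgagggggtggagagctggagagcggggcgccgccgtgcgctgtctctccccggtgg
Rps19: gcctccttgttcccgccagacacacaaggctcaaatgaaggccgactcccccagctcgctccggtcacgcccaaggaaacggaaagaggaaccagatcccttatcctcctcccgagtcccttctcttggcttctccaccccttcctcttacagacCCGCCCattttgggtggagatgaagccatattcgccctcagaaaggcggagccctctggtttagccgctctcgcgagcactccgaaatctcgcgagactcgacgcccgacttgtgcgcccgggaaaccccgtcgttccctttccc

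The motifs were the CCAAT box of NF-Y (CCAAT), the GC box of SP and KLF factors (GGGCGG), the E-box of MYC and USF (CACGTG), an ETS site (CCGGAAG), the NRF1 core (GCGCATGC), a YY1 site (AAGATGG), the CRE of CREB factors (TGACGTCA), an AP-1 site (TGANTCA), the TATA box (TATAAA), an interferon response core (GAAACTGA) and a RUNX site (TGTGGTT). The first 3 had matches in these windows, and the other 8 had none in the 7 windows. The Per1 window held 3 CCAAT boxes, 1 GC box and 1 E-box. The Kpnb1 window held 3 CCAAT boxes and 3 GC boxes. Exosc8 and Hivep2 had 2 GC boxes each, Rps19 had 1, and Dusp6 and Nfkb2 had 1 CCAAT box each. Of the 32851 promoter windows in the RefSeq table, 37.4% held a CCAAT box, 35.7% a GC box and 7.15% an E-box. The shares were 13.6% for the TATA box, 8.86% for the ETS site, 7.81% for the AP-1 site, 6.34% for the YY1 site, 5.27% for the RUNX site, 2.71% for the NRF1 core, 1.92% for the interferon response core and 1.79% for the CRE. The motif share and base composition of the broad peaks as a set are not given, because a promoter window was found for 507 of 660 broad peaks (76.8%) and 2783 of 3577 shorter ones (77.8%), fewer than the 80% that such a check needs, and the check was void.

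The broad peaks ranged from 1000 to 3382 bp, with a median of 1225 bp and quartiles of 1093 and 1481 bp. Of the 660, 506 (76.7%) were shorter than 1500 bp and 42 (6.36%) reached 2000 bp. The shorter peaks had a median of 524 bp. Lengths ran on across the limit without a gap. Just outside it were Rc3h1, an RNA-binding repressor of Tfh differentiation, Phlda1 and Pik3r5, each at 999 bp, with folds of 2.97, 4.97 and 4.10. Just inside it were the chaperone gene Hsph1 at 1000 bp and Cuedc1 and Nme3 at 1001 bp, with folds of 3.52, 6.30 and 5.16.

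The longest broad peak, at Jade2, which encodes a subunit of a histone acetyltransferase complex, spanned chromosome 11 from 51855543 to 51858925. Its summit held 67 anti-IFNAR1 fragments (Poisson 95% interval 51.9 to 85.1) over a background of 1.00, a fold of 9.97. The peak at Ccnd2, the cyclin D2 gene that drives entry into the cell cycle, was 3053 bp long (chromosome 6, 127150207 to 127153260) and held 46 fragments over 0.944, a fold of 7.20. At Tnfsf8, the gene of the CD30 ligand, 2774 bp (chromosome 4, 63859155 to 63861929) held 41 fragments over 0.472, a fold of 8.55. These long peaks were far above their background and moderate in coverage. Their backgrounds rest on few control fragments, whose counting error is not given, so these folds are imprecise.

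Others of the 8 longest were well covered on both sides and had lower folds. The circadian clock gene Per1 (2998 bp) held 99 fragments over 6.84, a fold of 3.70. Mnt (2908 bp), which encodes an antagonist of MYC, held 107 fragments over 7.08, a fold of 3.87. The AP-1 gene Junb (2929 bp) held 83 fragments over 4.25, a fold of 4.66. The pseudokinase genes Trib2 (2992 bp) and Trib1 (2882 bp) both stood in this group, with folds of 6.08 and 3.61. Over the 8 longest, folds ran from 3.61 to 9.97 and fragments from 41 to 107. Among the 660, which were selected on length, length had a Spearman's rho of -0.0042 with fold and 0.161 with fragments. Across all 4237 start peaks the rho of length with fold was 0.252, and across the shorter ones 0.249. These are descriptions across peaks that differed in coverage, and coverage was not held equal.

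**Figure D1:**
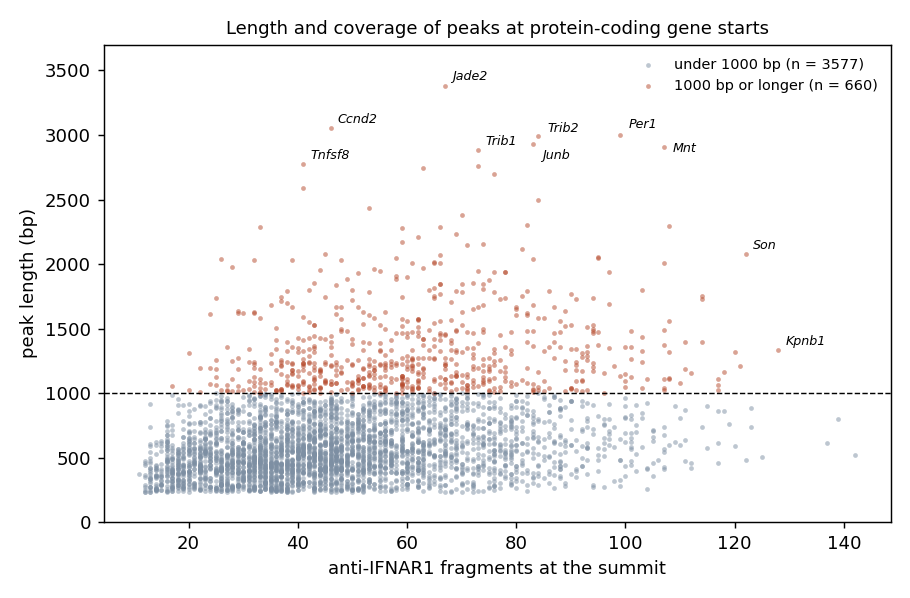
Peak length in bp against anti-IFNAR1 fragments at the summit for the 4237 peaks at protein-coding starts, 1 point per peak, with the limit of 1000 bp dashed. Broad peaks spread over nearly the whole range of coverage, and the longest, such as Jade2 and Ccnd2, are not the most covered.

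Broad peaks were more covered than shorter ones. Their median pileup, the coverage as scaled by the caller, was 17.1, which is 60.5 fragments (quartiles 45 and 75), against 12.4 and 44 fragments (32 and 58) for shorter peaks. The most covered broad peak was that of Kpnb1, the importin beta gene of nuclear import, with 128 fragments (Poisson 95% interval 107 to 152) over 7 and a fold of 4.65. Next came Son, a splicing cofactor gene, with 122 fragments, Mpc2, of the mitochondrial pyruvate carrier, with 121, and the splicing gene Luc7l2 with 120. Their folds were 5.07, 2.93 and 7.69. The top of the coverage range did not belong to the broad peaks, since shorter peaks reached 142 fragments.

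The fold was also somewhat larger at broad peaks. The median was 5.45 (95% interval of the median 5.16 to 5.62) against 4.74 (4.67 to 4.76) at shorter peaks, and the quartiles ran from 4.12 to 7.0 against 3.92 to 5.85. The control background was slightly higher as well, with a median of 2.12 against 1.89 control fragments. Of the broad peaks, 620 (93.9%) had a q, the caller's adjusted p, of 0.01 or lower, where 82.4% of all listed peaks did. Since length, coverage and q come from the same comparison, nothing is read from this share. The intervals treat peaks as independent and cover no spread between mice.

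The highest folds among broad peaks stood over a control background of less than 1 fragment. At Dtx4, a ubiquitin ligase gene of the Notch pathway (1099 bp, chromosome 19, 12501147 to 12502246), 72 fragments stood over 0.132, a fold of 18.9. At Bfar, an apoptosis regulator gene (1047 bp), 72 stood over 0.236, and at Exosc8, an RNA exosome gene (1066 bp), 71 over 0.260. Rpl7 (1846 bp), Tmem147, Suv420h1, Mrpl1 and Pabpc4 completed the 8, with folds of 14.2 to 15.9. Their lengths ran from 1047 to 1846 bp, so none of the 8 highest folds was among the 8 longest peaks. None of these 8 backgrounds was a count at the site. That of Dtx4 was the genome rate, and the others were averages over 1 kb or 10 kb. Such low backgrounds rest on few control fragments, whose counting error is not given, so these folds are imprecise. The lowest folds stood at well covered sites with 7 to 10 control fragments. These were Nr3c1, the glucocorticoid receptor gene (fold 2.33), Lrif1 (2.47), Bhlhe40, a regulator of T cell cytokine production (2.48), BC005537 (2.53) and the nuclear export gene Xpo1 (2.56).

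Length and coverage went together across all 4237 start peaks (Spearman's rho 0.342), so broad and shorter peaks were set side by side at like coverage. In the lowest quartile of pileup 53 of 1093 peaks (4.85%) were broad, and in the highest 299 of 1017 (29.4%). In each quartile the broad peaks had the larger median fold and the lower median background. In the lowest quartile the median fold was 6.06 (95% interval of the median 5.67 to 7.13) against 4.93 (4.88 to 5.02), over a background of 0.236 against 0.472. In the highest quartile it was 5.11 (4.89 to 5.57) against 4.38 (4.21 to 4.55), over 3.54 against 4.01. The quartiles in between gave 5.73 against 4.74 and 5.22 against 4.42. Both backgrounds of the lowest quartile, 0.236 and 0.472, rest on few control fragments, and the intervals leave out their counting error. Within a quartile the broad peaks were still slightly more covered, with a median of 29 against 25 fragments in the lowest and 77 against 75.5 in the highest. A peak is as long as the stretch that passes the caller's threshold, so background and length are not independent measures.

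**Figure D2:**
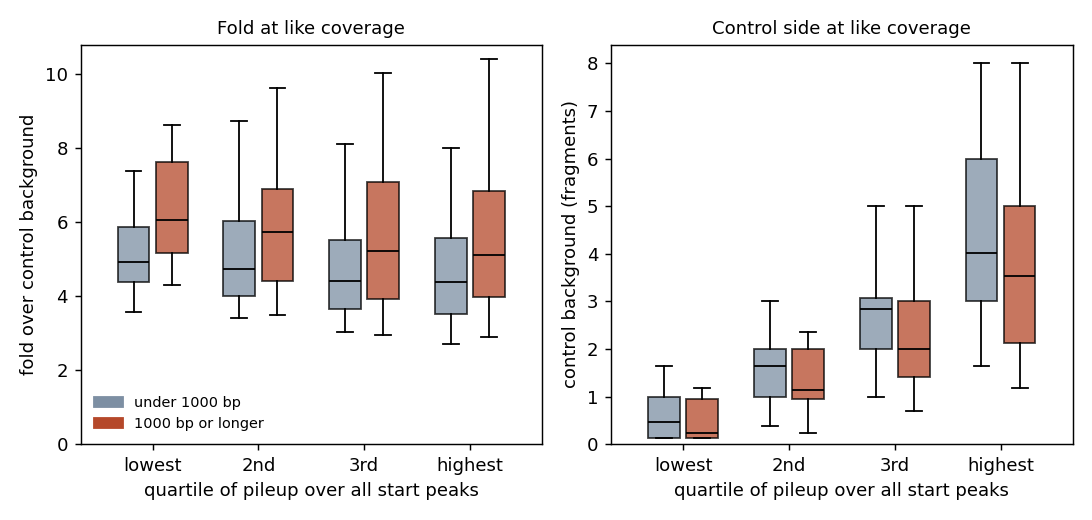
Fold over the control background (left) and the control background in fragments (right) in quartiles of pileup over all start peaks, for peaks under 1000 bp (grey) and of 1000 bp or longer (red). Boxes span the quartiles with the median, whiskers the 5th to 95th percentile. In each quartile the red median lies higher on the left and lower on the right.

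Broad peaks lay across the gene start on both sides. Of the 660, 548 (83.0%) spanned the start of the assigned transcript, against 1985 of 3577 shorter peaks (55.5%), and a longer peak has more room to do so. The median reach was 654 bp upstream and 630 bp downstream, and 183 peaks (27.7%) reached at least 500 bp both ways. A further 76 (11.5%) lay entirely upstream of the assigned start and 36 (5.45%) entirely downstream. The point of highest coverage was often away from the start. Of the broad peaks, 243 (36.8%) had their summit within 200 bp of it, against 1976 shorter ones (55.2%). Summits over 500 bp away were found for 163 broad peaks (24.7%), against 400 shorter ones (11.2%). A longer peak also has more room for a distant summit, so nothing is read from these differences. Distances refer to the 1 transcript that the authors' annotation assigned. At Hivep2 the peak lay upstream of the assigned start and contained the RefSeq start whose window is printed above.

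Single genes show the range of shapes. The Junb peak began 25 bp inside the assigned transcript and ran on to 2954 bp, over 97.1% of the 1840 bp gene. The Per1 peak ran from 3204 to 206 bp upstream of the assigned start. The peak at Jun, the AP-1 gene, reached 1122 bp upstream and 923 bp downstream. The Ier2 peak covered 73.4% of its 1522 bp gene, with the summit 47 bp before the start. A peak over at least 50% of the RefSeq gene was found for 8 of 652 broad peaks with a matched gene (1.23%) and 7 of 3529 shorter ones (0.198%).

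**Figure D3:**
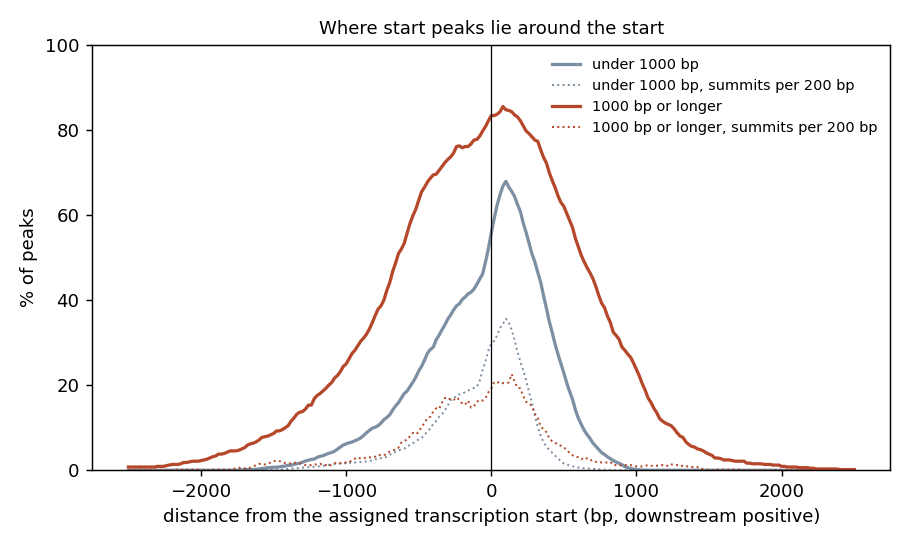
Share of peaks covering each position around the assigned start (solid lines) and share of summits in a 200 bp window at each position (dotted lines), for peaks under 1000 bp (grey) and of 1000 bp or longer (red). The red lines are wider, and their summits are spread further from the start than the grey ones. Longer peaks have more room for both.

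**Figure D4:**
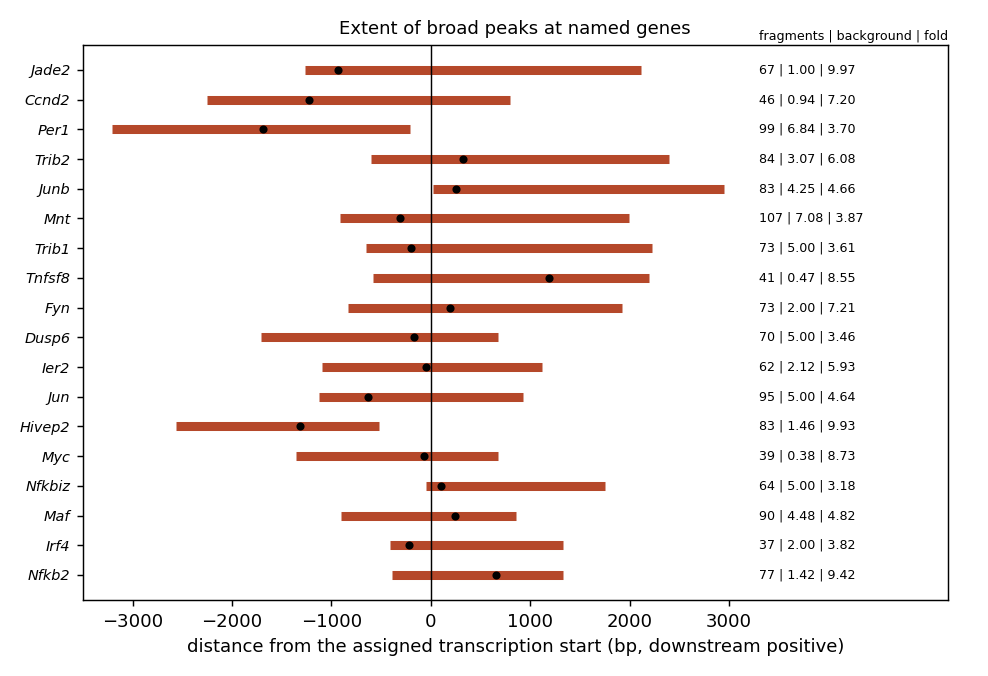
Extent of 18 broad peaks around the assigned start, in bp with downstream positive, 1 bar per peak with the summit as a dot. Fragments, control background and fold stand at the right. Junb and Nfkbiz extend into the gene, Per1 and Hivep2 lie upstream, and Jun and Ier2 reach to both sides.

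Some broad peaks held the starts of more than 1 gene. The RefSeq promoter table, which has an entry for 79.9% of protein-coding genes, placed starts of at least 2 genes inside 93 broad peaks (14.1%, Wilson 95% interval 11.6 to 17.0) and 215 shorter ones (6.01%, 5.28 to 6.84). These counts are minima, and a longer peak has more room for a start. By a measure that does not use the length, an opposite-strand start lay within 1 kb of the assigned start for 138 broad peaks (20.9%, 18 to 24.2) and 655 shorter ones (18.3%, 17.1 to 19.6), and these intervals overlap. The RefSeq genes themselves had a median length of 29101 bp (95% interval 26409 to 32724) for broad and 26135 bp (24894 to 27514) for shorter peaks. Of the 415 start peaks at genes under 5000 bp, 60 (14.5%) were broad, against 15.7% at longer genes.

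Gene lists differed in how often their start peaks were broad. With 1 peak per gene, the longest, 658 of 4082 genes with a start peak (16.1%) had a broad one, and the median length was 584 bp. Each list is given by its count and median beside these, without a test of the list. Intervals are Wilson 95% intervals and treat genes as independent. Since some genes belong to more than 1 list, the lists are not separate.

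The NF-κB pathway carries signals from the antigen receptor and costimulation to the nucleus, and MAF and BACH proteins are nuclear transcription factors. Genes of this combined list had broad peaks in 8 of 12 cases (66.7%, 39.1 to 86.2), with a median length of 1235 bp. Of the genes for the DNA-binding subunits, Nfkb2 (1726 bp) held 77 fragments over 1.42, a fold of 9.42. Rela (1182 bp) held 54 over 1.00, a fold of 8.13. Rel (1287 bp) and Relb (1044 bp) were well covered in control mice too, with folds of 3.41 and 3.20. Of the inhibitors and cofactors, Nfkbid (1385 bp) had a fold of 11.1, Bcl3 (1592 bp) 8.84 and Nfkbiz (1799 bp) 3.18. The peak of Maf, a driver of IL-21 expression, measured 1768 bp with 90 fragments over 4.48 and a fold of 4.82. It was the only broad one among the MAF and BACH genes, so the share of the combined list comes mainly from NF-κB genes. The 4 shorter ones of the list were Mafk at 606 bp, Tnfaip3, an NF-κB inhibitor, at 605 bp, Maff at 310 bp and Bach2 at 268 bp. Their folds, of 9.09, 3.82, 2.67 and 6.07, overlapped those of the broad members.

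Immediate early and activation regulators, many of which are transcribed within minutes of a signal, had broad peaks in 16 of 30 cases (53.3%, 36.1 to 69.8), with a median length of 1240 bp and a median of 66.5 fragments. Beside Junb, the AP-1 members were Jun (2045 bp, 95 fragments over 5.00, fold 4.64), Fosl2 (1481 bp, fold 6.31) and Fos (1268 bp, fold 2.77). Dusp6 and Dusp1, phosphatases that switch off MAP kinases, measured 2380 and 1652 bp, with folds of 3.46 and 3.94. The stress sensors Gadd45b (2119 bp) and Gadd45g (1949 bp) had folds of 4.78 and 6.85. Myc, the growth regulator, stood apart in this list with 39 fragments over 0.378 and a fold of 8.73 across 2028 bp. The antiproliferative genes Btg1 and Btg2 measured 1782 and 1710 bp, with folds of 5.62 and 4.04. Among the 14 shorter ones were Egr1 at 911 bp, Egr2 at 799 bp, Socs3 at 628 bp and Socs1 at 553 bp. The list's median fold of 4.17 was below the 4.84 of all genes with a start peak. Its median background of 4.00 control fragments was above their 2.00, so these starts had long peaks and coverage in both groups. The median gene of this list was 4141 bp long.

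Of the Tfh programme genes 8 of 24 (33.3%, 18 to 53.3) had a broad peak, with a median length of 825 bp. Beside Tnfsf8 and Maf they were Irf4, a transcription factor of activated lymphocytes (1743 bp, 37 fragments over 2.00, fold 3.82), Tox (1469 bp, fold 3.54) and Ascl2 (1444 bp, fold 3.23), both transcription factors of Tfh development, Nfatc2, a calcium-regulated factor (1351 bp, fold 3.92), Rgs16 (1254 bp, fold 4.74) and Cebpa (1945 bp, fold 5.41). Cebpa also stands in the myeloid list, where it was the only broad member. The starts of Tcf7 (987 bp), Foxp1 (980 bp), Id3 (973 bp) and Pdcd1 (920 bp), which encodes PD-1, fell just under the limit, and that of Bcl6, the lineage-defining repressor, measured 313 bp with 39 fragments over 0.991. Of the T cell receptor signalling genes 4 of 19 (21.1%, 8.51 to 43.3) were broad. The peak of the kinase gene Fyn reached 2762 bp with 73 fragments over 2.00 and a fold of 7.21, followed by Nfatc2, Malt1 (1266 bp, fold 4.38) and Cd247 (1191 bp, fold 5.31), which encodes the zeta chain.

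Of the lymphocyte transcription factors 9 of 31 (29.0%, 16.1 to 46.6) had a broad peak. Hivep2, a zinc finger gene, led with 2040 bp, 83 fragments over 1.46 and a fold of 9.93. Stat6, which carries the IL-4 signal, followed with 2007 bp and a fold of 6.20. Others were Irf4, Irf2 (1616 bp, fold 3.73), Foxo3 (1276 bp, fold 6.68), Klf13 (1223 bp, fold 6.86), Stat5a (1213 bp, fold 3.75) and the CD4 lineage gene Zbtb7b (1192 bp, fold 4.37). Type I interferon-stimulated genes had a broad peak in 3 of 14 cases (21.4%, 7.57 to 47.6). Among them were Irf7 (1130 bp, 51 fragments over 3.00, fold 3.85) and Parp9 (1027 bp, 51 over 1.18, fold 7.07). The median length of this list was 547 bp and its median coverage 28 fragments, the lowest of the lists with at least 5 genes.

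**Figure D5:**
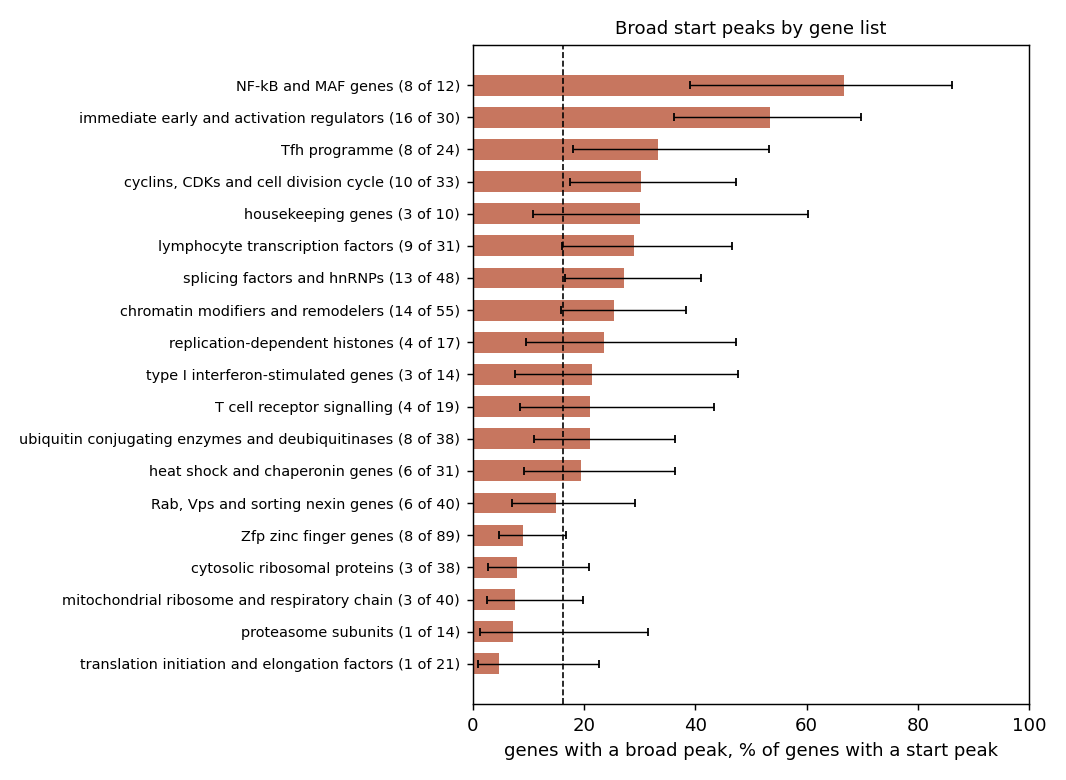
Genes with a broad peak as a percentage of genes with a start peak, for the 19 lists with at least 5 such genes, counts in brackets. Whiskers are Wilson 95% intervals and the dashed line is the 16.1% of all genes. The combined list of NF-κB and MAF genes, in which Maf is the only broad MAF or BACH gene, stands highest at 66.7%. The translation factor list stands lowest at 4.76%.

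Cell cycle genes had broad peaks in 10 of 33 cases (30.3%, 17.4 to 47.3). Beside Ccnd2 these included its partner kinase gene Cdk6 (2747 bp, 63 fragments over 4.00, fold 3.76) and the inhibitor gene Cdkn2c (1745 bp, fold 7.32), and Cdk17 (1456 bp, fold 6.65). Splicing factors and hnRNPs had 13 of 48 (27.1%), with U2af2 at 2053 bp, Hnrnpk at 1730 bp, Prpf4b at 1625 bp and Hnrnph1 at 1524 bp, and folds of 3.01, 3.32, 3.92 and 4.36. Chromatin modifiers had 14 of 55 (25.5%, 15.8 to 38.3), with the acetyl-lysine reader gene Brd2 at 2011 bp, Kdm2b at 1781 bp, Tet3 at 1623 bp and Asxl2 at 1529 bp. Kdm2b and Smarca2 were the 2 genes with 2 broad start peaks each. The further Kdm2b peak measured 1412 bp, and the Smarca2 peaks 1073 and 1005 bp. Of the replication-dependent histone genes 4 of 17 (23.5%, 9.56 to 47.3) were broad, led by Hist1h3a with 2013 bp. Of the ubiquitin-conjugating enzymes and deubiquitinases 8 of 38 (21.1%, 11.1 to 36.3) were, with Ube2n at 1360 bp, Usp38 at 1185 bp and Ube2g1 at 1178 bp. This list was built from symbol prefixes, and its longest peak (1550 bp) stood at Usp6nl, which encodes a Rab GTPase-activating protein and not an enzyme of either class. Broad peaks were also found at 6 of 31 heat shock and chaperonin genes (19.4%, 9.19 to 36.3), led by Hspa8 with 1750 bp. Of 10 housekeeping genes 3 were broad (30.0%, 10.8 to 60.3), namely Ywhaz (1680 bp), Polr2a (1341 bp) and B2m (1222 bp). The 16.1% of all genes lay inside the intervals of the chromatin, histone, ubiquitin, heat shock and housekeeping lists. It also lay inside those of the receptor signalling, lymphocyte factor and interferon-stimulated lists.

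The remaining lists had shares below the 16.1% of all genes, and that share lay inside each of their intervals that is printed here. Of the cytosolic ribosomal protein genes 3 of 38 (7.89%, 2.72 to 20.8) were broad, with a median length of 504 bp. These were Rpl7, with 66 fragments over 0.236 and a fold of 15.9, Rps12 (1067 bp, fold 6.01) and Rpl14 (1006 bp, fold 8.88). The remaining 35 ran up to 912 bp, and Rps19, whose window is printed above, held 97 fragments over 10.0 in 704 bp. Mitochondrial ribosome and respiratory chain genes had 3 of 40 (7.50%, 2.58 to 19.9), namely Mrpl34 (1728 bp), Mrpl1 (1559 bp) and Cox19 (1269 bp), and a median length of 394 bp. The translation factor list had 1 of 21, Eif4g2, at 1017 bp, and the proteasome list 1 of 14, Psmb3, at 1006 bp. Not all genes of these lists are such factors or subunits: Eif2ak3, a kinase gene, and Psmg2, a proteasome assembly gene, are among the shorter ones. Zfp zinc finger genes had 8 of 89 (8.99%, 4.63 to 16.7), led by Zfp36l2 with 1805 bp, an mRNA decay gene that also stands in the immediate early list, and Zfp703 with 1275 bp. The Rab, Vps and sorting nexin genes had 6 of 40 (15.0%), led by Rab43 with 1543 bp and a fold of 8.89.

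The lists differed in coverage too, and coverage moves with length. The median was 64 fragments for NF-κB and MAF genes and 66.5 for immediate early genes, against 41 for ribosomal protein genes and 46 over all genes. With only start peaks at or above the median pileup, and the longest of these per gene, 7 of 10 NF-κB and MAF genes (70.0%), 14 of 25 immediate early genes (56.0%) and 1 of 14 ribosomal protein genes (7.14%) were broad, against 23.3% of all genes there. For gene length, ribosomal protein genes had a median of 3222 bp and NF-κB and MAF genes one of 13411 bp.

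Markers of other cell types were nearly absent from the list. No listed peak of any section was assigned to the 6 B cell markers or to the 7 markers of CD8 T cells and NK cells, and of 6 myeloid markers only Cd14 had one, which was not at a start. Of 8 CD4 T and Tfh markers, Bcl6, Cd3e, Cd4, Maf, Pdcd1 and Tox had a start peak, broad at Maf and Tox, while Cxcr5 and Icos had none. In the longer myeloid list of 20 genes, 2 had a start peak, and 1 of these, Cebpa, was broad. Over all genes, 4082 of 21896 protein-coding genes had a start peak, so no peak among 6 or 7 markers says little. The list also holds only peaks higher on the anti-IFNAR1 side, so cells present alike in both groups need not show in it. The part of other cells in the lengths was not tested beyond these counts.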

How the data were processed

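ATAC-seq was done on 7 samples, 4 anti-IFNAR1 and 3 control IgG, grouped by their treatment labels. The build mm10 and the tools DESeq2, bedtools, DiffBind 2.0.7, MACS2 2.1.0.20150420 and BWA 0.7.9a are named, without a role, per the submitters' processing notes. The shift of cut sites and the treatment of duplicates are not given in the sources used here. Deposited was 1 list of peaks in the layout of MACS2, named as IFN against Ig. Which libraries were pooled is not stated, and anti-IFNAR1 was taken as the treated side from these names.

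Signal values are summit pileups of the deposited list, per the file headers, and the fold enrichment is the authors' ratio over the local background. The headers of 2 deposited columns are damaged, and by their order these columns were taken to hold −log10 p-values and −log10 q-values. All listed peaks have a q of at most 0.0496. Pileups were whole multiples of 0.283 (largest remainder 0.00532), which gave the fragments, and dividing the scaled coverage plus a pseudocount of 1 by the fold, less 1, gave the background. Depth per sample is unknown. PCR copies are not independent molecules, so intervals cover counting error only. Coordinates are as the file gives them, with length equal to end minus start.

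The TSS section reaches from 995 bp upstream to 99 bp downstream of a start by the file's distance. Gene names of 4181 of 4237 start peaks matched a RefSeq (GRCm38.p6) symbol or synonym whose gene lay within 5 kb of the peak, and a start within 1 kb was needed for a promoter window. Named are the 8 longest, 8 most covered and 8 highest and 5 lowest in fold, 3 on each side of the length limit, genes with 2 broad peaks, and up to 4 of the longest broad members of each of 22 gene lists (all for the Tfh, lymphocyte factor, receptor signalling and interferon lists, except 1 gene not reported here). Other genes named, the shorter list members and some further broad ones, were chosen after their values were seen. The members and lists were chosen with earlier results of these data known. No B cell or CD8 T and NK cell list gene had a start peak, and 2 of the myeloid list had, 1 of them broad. Python 3.11.15, numpy 2.4.6, pandas 2.3.3 and scipy 1.17.1 were used, and the scripts were checked on simulated peaks.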

Additional observations from a re-analysis of the deposited data

How the results depend on the processing

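The number of broad peaks, 660, became 1162 with a minimum of 800 bp and 154 with 1500 bp, and 620 at a q of 0.01 and 623 with summits within 1 kb of a start. The median pileup of 17.1 moved to 16.1 with 800 bp and 18.4 with 1500 bp. The median fold of 5.45 was between 5.23 and 5.59 with other length minima, a q of 0.01, a pileup of at least 20 or 1 peak per gene, and 4.50 at the peaks whose background was counted at the site, an alternative chosen after the data were seen. The share with starts of at least 2 genes, 14.1%, was 18.2% with 1500 bp, 20.9% for an opposite-strand start within 1 kb and 7.42% with protein-coding genes only, the last chosen after the data were seen. With a minimum of 1500 bp, 33.3% of NF-κB and MAF genes and 2.63% of ribosomal protein genes were broad, against 3.77% of all genes. The immediate early share was between 43.3% and 60% in all settings. Of 19 lists, the side of the share of all genes was kept by 17 with 800 bp, 16 with 1500 bp, 19 at a q of 0.01, 17 with summits within 1 kb and 18 at or above the median pileup, the last chosen after the data were seen. The interferon-stimulated list changed side with 800 and with 1500 bp. The cause of these moves was not tested, other than that a higher minimum leaves fewer peaks. No paired analysis was possible because the list has no column for any sample, and for the same reason no replicate could be left out. Other settings for base composition were not run, since that check was void. The least covered listed peak had 11 anti-IFNAR1 fragments, and what a greater depth would add was not tested.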
